A study of Rattus norvegicus with 16 samples.

Results

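Livers of rats that had eaten feed with 3000 ppm phenformin for 14 days were compared, across all measured genes, with livers of rats that had eaten it for 3 days. The comparison takes 8 of the 16 arrays of the study, chosen by their titles: 4 of treated livers at day 14 and 4 of treated livers at day 3. The other 8 arrays, 4 of untreated livers at day 14 and 4 at day 3, are used here for the same comparison in time without the drug. All animals were male RccHan Wistar rats, 7 to 8 weeks old at the start, assigned at random to phenformin in the diet or to untreated food. The labels state 5 animals per group, of which 4 arrays per group are analysed here, and they call the arrays biological replicates, so each was taken as 1 rat. Rats shared cages of 2 or 3 animals. The sources used here give neither which rats shared a cage nor the hour of necropsy. Rats of day 14 were killed 11 days later in life than rats of day 3, so within treated livers the time on the drug and the age of the rat cannot be told apart, and the change in control livers is printed for many of the lists and genes below.

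Phenformin is a biguanide, a glucose-lowering drug related to metformin that enters hepatocytes through organic cation transporters and inhibits complex I of the respiratory chain. A lower energy state activates the kinase AMPK, which acts on fatty acid synthesis and glucose production. Liver switches between a fed programme, with glycolysis and fatty acid synthesis from carbohydrate, and a fasted one, with fatty acid oxidation through the nuclear receptor PPARalpha, ketone production and release of glucose. It also adapts to foreign compounds through the nuclear receptors CAR and PXR, which raise detoxifying cytochromes P450.

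RNA was measured on 1-colour Affymetrix whole-transcript arrays. Each of 22093 genes is represented by 1 probe set with a single gene symbol, and values are log2 of the deposited linear intensity, written below as log2 units. Levels of different probe sets are not RNA amounts, and each gene was compared only with itself. The label of the tissue was checked against cell type markers. The mean of 11 hepatocyte markers lay at 17.47 to 17.53 at day 14 and at 17.44 to 17.50 at day 3, and the means of 9 pancreas markers (4.96 to 5.35 and 5.04 to 5.26) and of 9 kidney, gut and adipose markers (5.07 to 5.33 and 5.14 to 5.32) are given for the same times. These lists rest on different probe sets, so their levels are printed as values and were not set against each other. The highest log2 value in the table was 19.93, and close to it the spread narrows: the 43 genes within 1 log2 unit of it had a median SD of 0.07 in the day 14 phenformin arrays, against 0.16 for genes lying 2 to 4 units below. Folds of such genes can be too small.

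No gene passed the test between day 14 and day 3 of phenformin. With limma over all 22093 genes, 0 were called higher and 0 lower at a Benjamini-Hochberg adjusted p under 0.05 (0.0% in each direction). The smallest adjusted p was 0.0878, shared by Tnfrsf9, Csad, Fndc4 and Smpdl3a, and 25 genes had an adjusted p under 0.25. At an unadjusted p under 0.05 there were 833 genes with higher values at day 14 (3.77% of all genes) and 871 with lower values (3.94%), together 1704, where 1105 would be expected with no difference. In 464 genes (2.1%) all 4 arrays of day 14 lay above all 4 of day 3, and in 476 (2.15%) all lay below. The same limma fit called 89 genes (0.403%) between day 14 and day 3 of control livers, 11 higher (0.0498%) and 78 lower (0.353%), with 1580 genes at an unadjusted p under 0.05, so that 7.71% of genes reached this p in treated and 7.15% in control livers. These control calls depended on single arrays: limma called 0 genes without control day 14 replicate 2 or without control day 3 replicate 1. The comparison of the 2 time changes, treated minus control, called 1 gene (0.00453%) and had 615 genes with the higher change in treated livers (2.78%) and 419 with the lower (1.9%) at an unadjusted p under 0.05. The values below are therefore descriptions of differences that did not pass correction over all genes, unless a sentence says otherwise. The gene lists were chosen with earlier results of these data known, so their counts beside the shares of all genes are descriptions too.

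**Figure D1:**
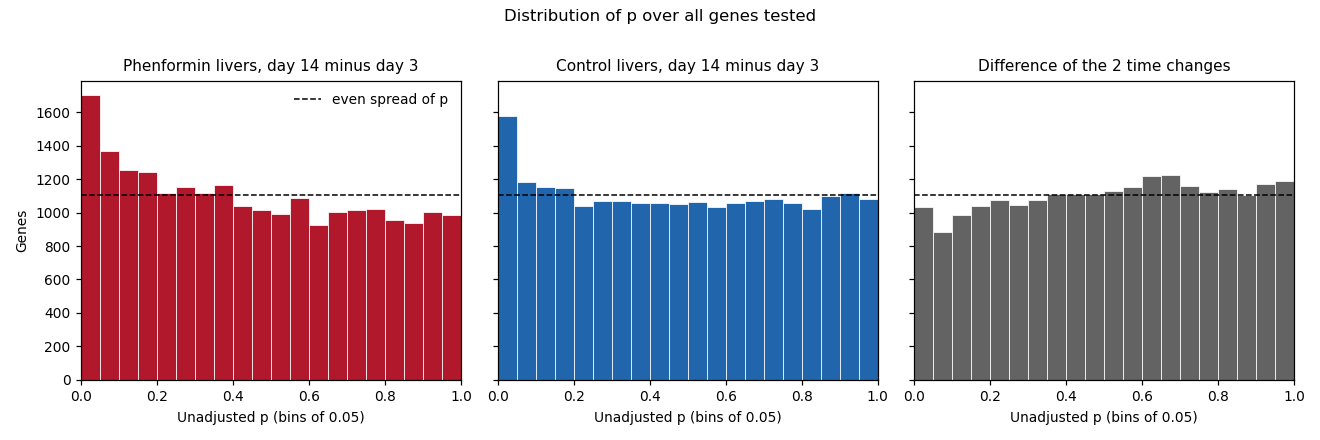
Number of genes (vertical axis) by unadjusted limma p in steps of 0.05 (horizontal axis) for day 14 minus day 3 in phenformin livers, the same in control livers, and the difference of the 2 time changes; the dashed line marks the 1105 genes per step expected with no difference. The first step holds 1704 genes in phenformin livers, 1580 in control livers and 1034 in the comparison of the time changes.

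Much of what separated the times in treated livers ran the same way in control livers. Of the 833 genes with higher values, 585 (70.2%) also had a higher mean at day 14 in control livers, which 48.8% of all genes had. Of the 871 with lower values, 621 (71.3%) were also lower in control livers, against 51.2% of all genes. The time changes of treated and of control livers share no arrays, and across all genes they correlated with r = 0.23 (0.36 over the 11047 genes in the upper part of the scale), a description over genes, which are not independent replicates. Differences were small: of the 833 and 871 genes, 110 and 125 differed by at least 1.5-fold, and 30 and 33 by at least 2-fold. The median standard error of a change was 0.12 log2 units.

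Among the 12 genes with the smallest p and lower values at day 14, the leading ones were a receptor of activated lymphocytes, an enzyme of taurine synthesis and a glycolytic enzyme. Tnfrsf9, the costimulatory receptor 4-1BB, read 6.45, 6.27, 6.09 and 6.51 at day 14, against 7.30, 7.52, 7.60 and 7.45 at day 3. The groups did not overlap, the mean was 2.2-fold lower (95% interval 1.72 to 2.82; limma adjusted p = 0.0878), and control livers fell by 0.85 log2 units (limma adjusted p = 0.0423). Csad, the decarboxylase that makes hypotaurine from cysteine sulfinic acid, read 11.70, 10.49, 12.16 and 11.94 at day 14 and 13.37, 13.22, 13.62 and 13.28 at day 3. That is 3.48-fold lower (2.28 to 5.3; adjusted p = 0.0878), with every array of day 14 below every array of day 3. Its control mean was 13.95 ± 0.29 at day 14 and 14.59 ± 0.35 at day 3 (SD, n = 4 each), and the difference of the 2 time changes, -1.16 log2 units, had an unadjusted limma p of 0.0113 that did not survive adjustment (0.738). Fndc4, a secreted protein with a fibronectin type III domain, read 6.25, 6.81, 6.21 and 6.46 at day 14, against 7.29, 7.45, 7.42 and 7.33 at day 3, or 1.91-fold lower (1.54 to 2.38), with a control change of -0.39.

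Pklr, the liver pyruvate kinase that closes glycolysis, had the greatest fold of these 12. It read 12.86, 13.36, 13.64 and 13.15 at day 14, against 15.41, 16.08, 14.31 and 14.67 at day 3. The mean was 3.65-fold lower (2.23 to 5.97; adjusted p = 0.137), the control change was -0.83, and the lowest array of day 3 still lay above the highest of day 14. Abcg2, an efflux transporter of drugs and urate, averaged 6.28 ± 0.25 at day 14 and 7.15 ± 0.17 at day 3 (SD, n = 4 each), and its control change of -1.02 passed the test (limma adjusted p = 0.0197). Asns, which makes asparagine, and Cyfip2, a part of the WAVE complex that controls actin, were 2.04-fold (1.54 to 2.71) and 2.05-fold (1.55 to 2.72) lower. Sfmbt2, Ttc13, Pacsin2, Ptprk and Nod1 completed the 12 with folds of 1.28 to 1.44. Over these 12 genes the adjusted p ran from 0.0878 to 0.243, and 11 also had lower control values at day 14. In control livers 10 of them reached an unadjusted p under 0.05 (7.15% of all genes in either direction). The control p uses the same pooled spread as the p by which they were chosen, so this count is not independent of the choice. Pacsin2, a membrane-bending protein, and Nod1, a sensor of bacterial cell wall, were the members with hardly any control change (0.02 and -0.02 log2 units).

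Among the 12 genes leading in the other direction, the one with the smallest p was Smpdl3a. Smpdl3a, a lysosomal and secreted phosphodiesterase related to acid sphingomyelinase, read 12.82, 12.97, 12.93 and 13.18 at day 14, against 12.27, 12.22, 12.39 and 12.55 at day 3. It was 1.54-fold higher (1.33 to 1.78; adjusted p = 0.0878), and control livers were higher too, by 0.39 log2 units. Tmem30b, a chaperone subunit of phospholipid flippases, read 6.68, 7.50, 8.13 and 7.35 at day 14 and 6.09, 6.18, 6.27 and 6.31 at day 3, or 2.3-fold higher (1.67 to 3.18; adjusted p = 0.137), against 0.09 log2 units in control livers. The spread was wider at day 14, and replicate 1 was the lowest of its group. Atp8a1, a flippase of the P4-ATPase family, averaged 9.31 ± 0.28 at day 14 and 8.34 ± 0.19 at day 3 (SD, n = 4 each), 1.96-fold higher (1.43 to 2.7), with a control change of -0.1.

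Slco1b2, the hepatocyte carrier that takes up bile acids and other organic anions from blood, read 18.47, 18.48, 18.54 and 18.60 at day 14, against 17.98, 17.86, 18.16 and 18.18 at day 3. Its arrays did not overlap and the mean was 1.39-fold higher (1.22 to 1.59; adjusted p = 0.137), with a control change of 0.16. These values are high on the scale but lie below the top log2 unit for which a narrower spread is given above. Slc27a2, which imports and activates very long-chain fatty acids, averaged 14.9 ± 0.09 at day 14 and 14.42 ± 0.15 at day 3 (SD, n = 4 each), 1.39-fold higher (1.2 to 1.61), with a control change of 0.36. Amdhd1, an enzyme of histidine breakdown, read 15.09, 14.38, 15.11 and 14.94 at day 14, against 12.34, 13.75, 13.82 and 13.75 at day 3. Its 2.77-fold difference (1.75 to 4.38), a change of 1.47 log2 units, is 1.11 without replicate 1 of day 3, which lay far below its group, and the control change was 0.71. Erbb3, a receptor for neuregulins, was 1.73-fold higher (1.36 to 2.21). Hexa (a lysosomal hexosaminidase subunit), Rbm48, Pole3 (a DNA polymerase epsilon subunit), Inip and the pericyte gene Rgs5 made up the 12, with folds of 1.28 to 1.64. In 9 of the 12 the control mean was higher at day 14 as well. An unadjusted p under 0.05 was reached by 4 in control livers and by 8 in the comparison of the time changes. Of all genes, 7.15% and 4.68% reached it in either direction. That comparison contains the treated change by which these genes were chosen, and the control p uses the same pooled spread. Neither count is therefore independent of the choice.

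**Figure D2:**
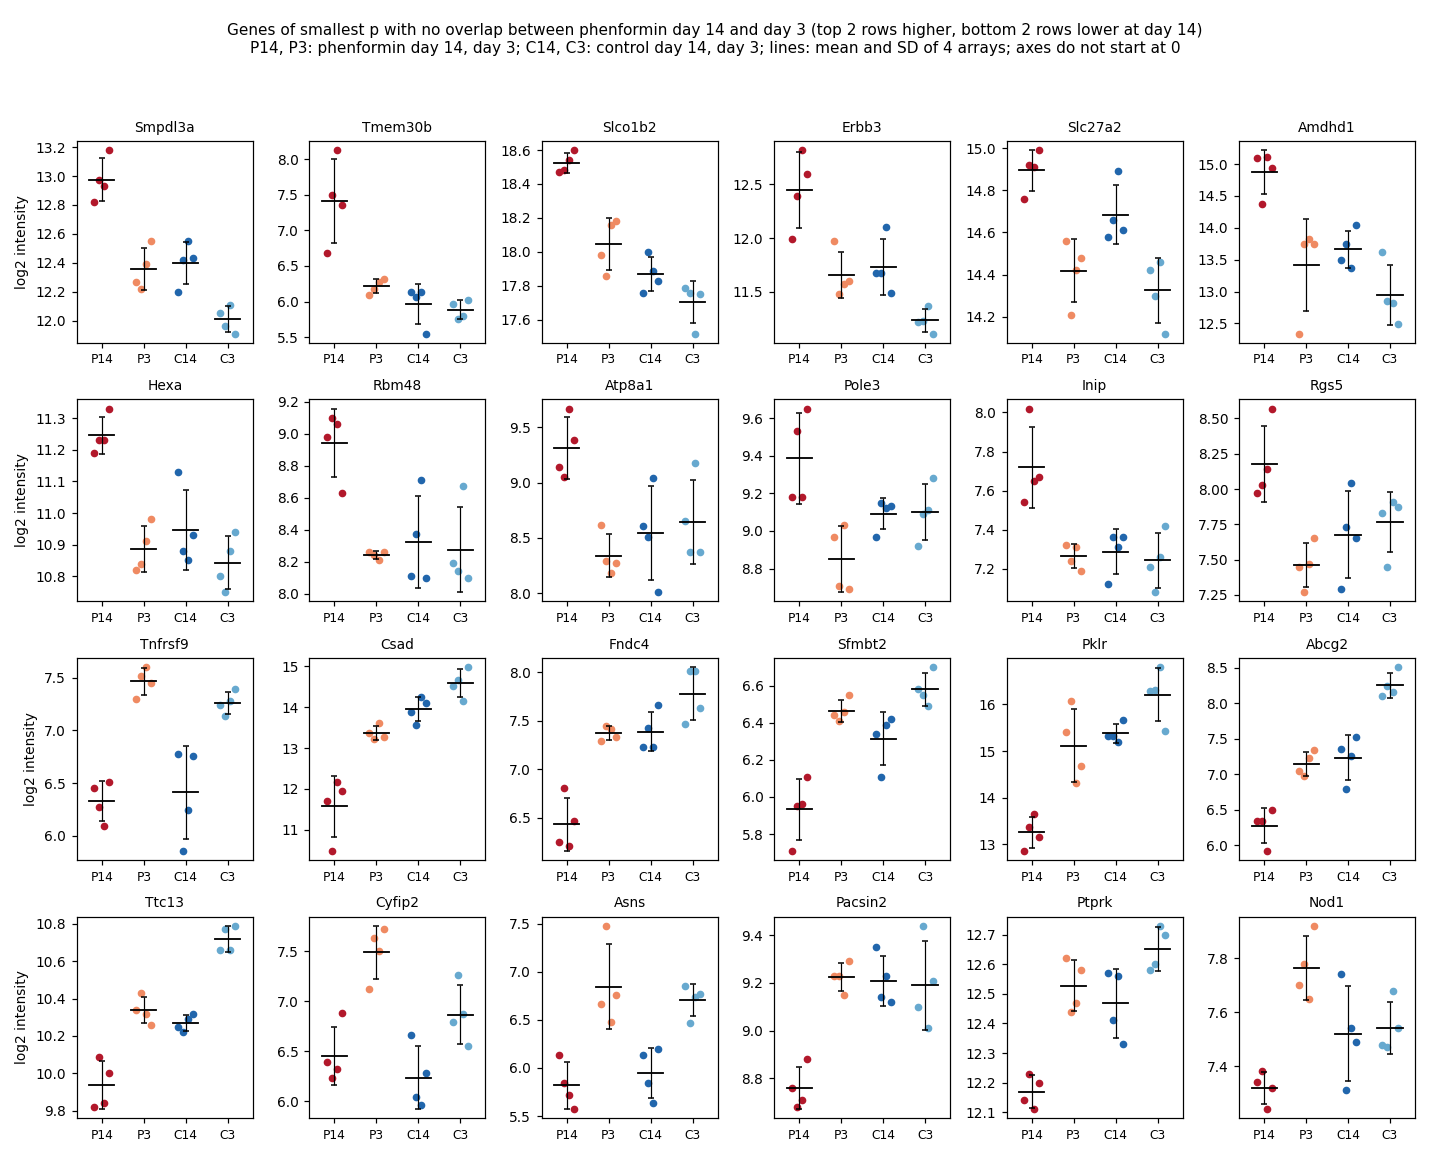
Log2 intensity (vertical axes) of the 24 leading genes in single arrays (points, n = 4 per group) with group means (bars), for phenformin day 14, phenformin day 3, control day 14 and control day 3. In every panel the 4 phenformin arrays of day 14 lie apart from the 4 of day 3, as the choice of these genes required; adjusted p of the phenformin change runs from 0.0878 to 0.277.

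Genes of fatty acid synthesis stood lower at day 14, in treated and in control livers. Of 19 measured genes of synthesis and desaturation, 18 had a lower treated mean at day 14, 9 at an unadjusted p under 0.05 and 0 higher at that p, where 3.94% and 3.77% of all genes reached it. The median change was -0.83 log2 units in treated livers and -0.63 in control livers, against -0.01 and 0.0 over all genes. The mean of the list read 12.18, 12.59, 12.47 and 12.47 at day 14 and 13.19, 13.56, 12.62 and 13.74 at day 3 of phenformin, against 12.70 to 13.75 and 13.74 to 14.64 in control livers. The treated arrays did not overlap, though replicate 3 of day 3 came close to those of day 14.

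Thrsp, a thyroid hormone-responsive protein that promotes fatty acid synthesis, read 13.55, 14.04, 13.32 and 13.26 at day 14, against 15.28, 16.40, 14.04 and 15.48 at day 3. It was 3.38-fold lower (1.9 to 6.02; adjusted p = 0.272), with replicate 3 of day 3 at the level of the highest array of day 14, and a control change of -0.61. Acaca, the acetyl-CoA carboxylase that commits carbon to fatty acids, read 11.10, 11.31, 12.10 and 11.50 at day 14 and 13.29, 13.90, 11.91 and 13.12 at day 3. The difference was 2.93-fold (1.65 to 5.21; adjusted p = 0.331), replicate 3 of day 3 again lay among the day 14 arrays, and the control change was -0.9. Me1, the malic enzyme that supplies NADPH, was 2.75-fold lower (1.46 to 5.2), and its control change of -2.14 passed the test (limma adjusted p = 0.0476). Scd, the stearoyl-CoA desaturase, scattered most: 13.51, 15.59, 11.20 and 13.59 at day 14, against 15.40, 16.94, 13.47 and 16.09 at day 3. Its 4.01-fold lower mean has an interval of 1.33 to 12.1 and the groups overlap. Acly was 2.28-fold lower (1.11 to 4.67), Srebf1, the transcription factor that drives the pathway, 2.94-fold (1.04 to 8.31), and Gpam and Dgat2, which build glycerolipids, 1.78-fold (1.22 to 2.6) and 1.33-fold (1.09 to 1.61). Fasn, the fatty acid synthase, read 11.39, 12.29, 13.25 and 12.14 at day 14 and 14.54, 14.97, 12.31 and 13.91 at day 3, which overlap. Pnpla3, a lipase of lipid droplets that follows the fed state, averaged 5.57 ± 0.24 at day 14 and 6.64 ± 0.83 at day 3 (SD, n = 4 each; adjusted p = 0.768).

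In the comparison of the time changes, the median difference of this list was 0.02 log2 units. There 2 of 19 genes reached an unadjusted p under 0.05, both with the higher change in treated livers (2.78% of all genes). Pklr was the carbohydrate gene with the greatest change, and its difference from the control change was -1.04 log2 units, with an unadjusted limma p of 0.044 (adjusted 1.0). Of the 20 glycolysis genes, 16 had lower treated means at day 14. With lower values 3 reached an unadjusted p under 0.05 (3.94% of all genes): Pklr, Tpi1 (1.32-fold, 1.08 to 1.62) and Pfkfb1 (1.62-fold, 1.02 to 2.56). The list's median was -0.11 in treated and -0.13 in control livers. Of 8 glycogen genes, 3 reached that p with lower values (3.94% of all genes). Ppp1r3b, which targets protein phosphatase 1 to glycogen, read 6.40, 7.16, 6.48 and 6.91 at day 14, against 7.46, 7.63, 7.82 and 8.38 at day 3, or 2.13-fold lower (1.47 to 3.08; adjusted p = 0.302), with a control change of -0.67. The other 2 were the phosphorylase Pygl (1.32-fold, 1.08 to 1.62) and its kinase subunit Phka2 (1.27-fold, 1.02 to 1.59).

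**Figure D3:**
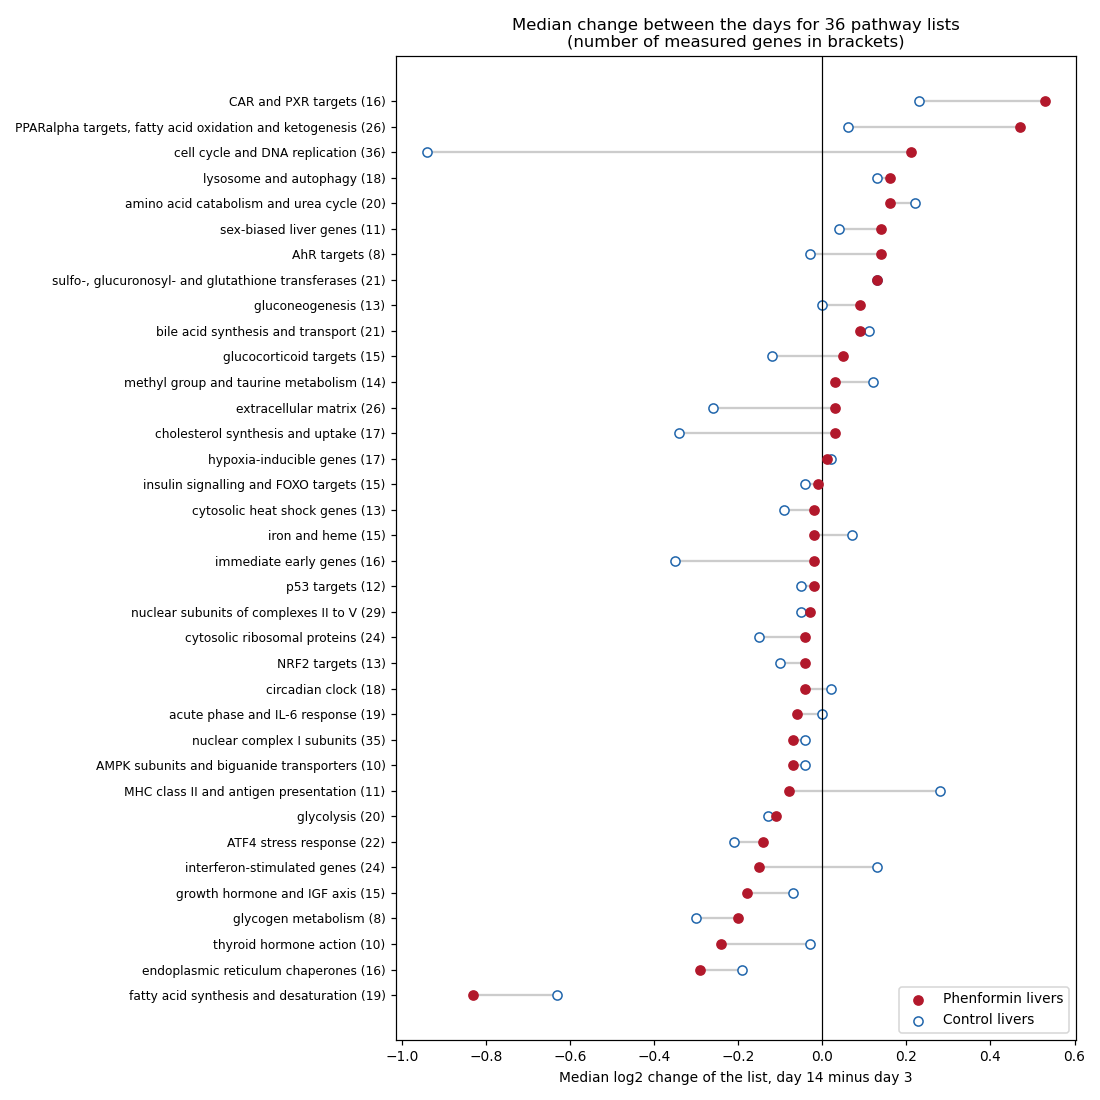
Median log2 change at day 14 minus day 3 (horizontal axis) of the 36 pathway lists in phenformin livers (filled) and in control livers (open). In phenformin livers fatty acid synthesis stands lowest at -0.83 and CAR and PXR targets highest at 0.53; in control livers the cell cycle list stands lowest at -0.94.

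Genes of fatty acid oxidation ran the other way in treated livers. Of 26 PPARalpha targets and genes of oxidation and ketogenesis, 25 had a higher mean at day 14. At an unadjusted p under 0.05, 12 were higher and 0 lower (3.77% and 3.94% of all genes). The median change was 0.47 log2 units, against 0.06 in control livers, where 2 genes reached that p with higher values (2.47% of all genes). The list mean read 12.56, 12.73, 13.32 and 12.83 at day 14 and 12.53, 12.15, 12.48 and 12.14 at day 3 of phenformin, which lie apart by the smallest of margins. In the comparison of the time changes, 3 of the 26 genes reached an unadjusted p under 0.05, all with the higher change in treated livers. Of all genes, 2.78% reached it in that direction. Cyp4a8, a fatty acid omega-hydroxylase, read 8.74, 7.87, 8.47 and 7.69 at day 14, against 6.41, 6.78, 7.21 and 6.02 at day 3. It was 3.0-fold higher (1.71 to 5.28; adjusted p = 0.331), and control livers were higher by 1.07 log2 units.

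Hadha and Hadhb, the subunits of the mitochondrial trifunctional protein of beta-oxidation, were 1.4-fold (1.16 to 1.69) and 1.46-fold (1.15 to 1.85) higher, with control changes of 0.13 and 0.08. Cpt2, the inner carnitine palmitoyltransferase, read 12.49, 12.29, 13.10 and 12.26 at day 14 and 11.95, 11.88, 12.12 and 11.49 at day 3, or 1.6-fold higher (1.21 to 2.11; adjusted p = 0.397), with a control change of -0.02. Cpt1a, the outer and rate-setting carnitine palmitoyltransferase, read 13.47, 13.98, 16.09 and 14.65 at day 14, against 14.15, 11.68, 13.72 and 10.63 at day 3. The 4.0-fold higher mean has an interval of 1.21 to 13.2 (adjusted p = 0.584), and replicate 1 of day 3 lay above the lowest pair of day 14. Its control change was 0.44. The other members at an unadjusted p under 0.05 were Cyp4a1 (2.63-fold), Angptl4 (2.58-fold), Cd36 (1.75-fold), Acaa2 (1.63-fold), Creb3l3 (1.36-fold), Acadl (1.21-fold) and Acadm (1.19-fold). Fgf21, a hormone of fasting liver, averaged 5.15 ± 0.18 at day 14 and 5.4 ± 0.42 at day 3 (SD, n = 4 each; adjusted p = 0.785).

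Both gluconeogenic genes best known for control by fasting stood higher at day 14. G6pc1, the catalytic subunit of glucose-6-phosphatase, read 16.40, 15.88, 15.55 and 15.98 at day 14, against 14.33, 13.91, 14.96 and 13.45 at day 3. It was 3.47-fold higher (1.77 to 6.78; adjusted p = 0.331), without overlap. Its control change was 0.11, and the difference of the time changes, 1.68 log2 units, had an unadjusted limma p of 0.0192 (adjusted 0.841). Pck1, the cytosolic phosphoenolpyruvate carboxykinase, read 18.38, 18.30, 18.28 and 18.14 at day 14 and 17.67, 17.63, 17.91 and 15.68 at day 3. Replicate 4 of day 3 stands far below the others, and the difference of 1.05 log2 units, or 2.07-fold (1.02 to 4.21; adjusted p = 0.64), is 0.54 without it, while the remaining arrays still do not overlap. Its control change was 0.38. The list of 13 gluconeogenesis genes had a median change of 0.09. At an unadjusted p under 0.05, 2 genes were higher and 1 lower (Pck2, the mitochondrial enzyme, 1.14-fold), against 3.77% and 3.94% of all genes.

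Targets of CAR and PXR were the list with the highest median in treated livers. All 16 measured members had a higher mean at day 14, 10 at an unadjusted p under 0.05, and in 5 the arrays did not overlap, against 3.77% and 2.1% of all genes. The list mean read 13.79, 13.77, 14.18 and 13.90 at day 14 and 13.30, 13.11, 13.18 and 13.21 at day 3 of phenformin, with no overlap, against 12.68 to 13.75 and 12.69 to 13.39 in control livers, which overlap widely. The median change was 0.53 log2 units in treated and 0.23 in control livers. In the comparison of the time changes, 1 of the 16 genes reached an unadjusted p under 0.05 (4.68% of all genes in either direction). Cyp3a9, a steroid-hydroxylating cytochrome P450, read 15.50, 14.96, 15.66 and 15.26 at day 14, against 14.15, 11.90, 13.49 and 13.24 at day 3. It was 4.45-fold higher (1.57 to 12.6; adjusted p = 0.466), and control livers were higher by 1.65 log2 units.

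Nr1i3, the gene of CAR itself, read 10.32, 10.08, 10.23 and 11.34 at day 14 and 10.11, 9.17, 9.63 and 8.82 at day 3, or 2.08-fold higher (1.31 to 3.32; adjusted p = 0.429), with a control change of 0.79. Cyp2b2, a phenobarbital-inducible cytochrome P450, read 12.21, 11.96, 12.22 and 11.68 at day 14, against 10.38, 11.53, 9.80 and 11.24 at day 3, or 2.43-fold higher (1.1 to 5.38), with a control change of 0.28. The probe set named Cyp2b1 was 3.04-fold higher (1.26 to 7.34), but its chromosome in the array's annotation is not the one RefSeq gives for the gene, and Cyp2b1 and Cyp2b2 are near-identical copies, so the identity of these values is uncertain. Cyp3a23-3a1 and Cyp3a18, which are close relatives, were 1.7-fold (1.19 to 2.43) and 2.0-fold (1.02 to 3.9) higher. Cyp2c6v1, Gsta2, Cyp3a2 and Ces2c were the remaining members at that p, with folds of 1.22, 1.2, 1.19 and 1.74. Cyp2c6v1 and Cyp3a2 lie within 1 log2 unit of the top of the scale.

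Bile acid genes held a few with higher values among many that did not differ beyond their spread. Of 21 measured genes, 4 reached an unadjusted p under 0.05 with higher values at day 14 and 0 with lower (3.77% and 3.94% of all genes). In control livers 0 of the 21 reached that p (7.15% of all genes), and the median change was 0.09 log2 units in treated and 0.11 in control livers. Beside Slco1b2 these were Amacr, a racemase of side chain shortening (1.55-fold, 1.19 to 2.02), Abcb4, the phospholipid exporter of bile (1.83-fold, 1.18 to 2.86), and Cyp8b1, the sterol 12-alpha-hydroxylase that sets the share of cholic acid. Cyp8b1 read 15.21, 14.67, 16.09 and 14.89 at day 14, against 15.01, 12.27, 14.55 and 12.61 at day 3. Its mean was 3.05-fold higher (1.32 to 7.05; adjusted p = 0.493), with replicate 1 of day 3 inside the day 14 range and a control change of 0.56. Cyp7a1, the cholesterol 7-alpha-hydroxylase that opens the classic route to bile acids, differed by 0.51 ± 0.79 log2 units (SE) in treated livers and by -1.03 in control livers.

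Chaperones of the endoplasmic reticulum formed a further group with lower values at day 14, in both treated and control livers. Of 16 measured genes, 15 had a lower treated mean at day 14. At an unadjusted p under 0.05, 6 were lower and 0 higher (3.94% and 3.77% of all genes). In 6 the arrays did not overlap (2.15% of all genes lay apart in that direction). The list mean read 13.32, 13.33, 13.12 and 13.25 at day 14, against 13.54, 13.74, 13.58 and 13.42 at day 3, so that the groups lie apart by little. The median change was -0.29 log2 units in treated and -0.19 in control livers. In the comparison of the time changes, 0 of the 16 reached an unadjusted p under 0.05 (4.68% of all genes in either direction). These genes answer to the transcription factors ATF6 and XBP1, which act with NF-Y at the ER stress response element. It reads CCAAT and CCACG with 9 bases of any kind between them, and it was searched on both strands in the 250 bases before each annotated start of the RefSeq promoters (assembly GRCr8). The element was found in 22 of 33469 promoters (0.0657%) and in 6 of the 14 list members with a promoter entry (42.9%): Calr, Creld2, Dnajc3, Hsp90b1, Hspa5 and Xbp1. A match is a description of these letters, not a binding site or a cause. The list holds genes that answer to ATF6 and XBP1, so the share among its members is not a result of these arrays. The share of 0.0657% counts promoters, while that of 42.9% counts list members. As examples of the match, which most of the 14 members lacked, the promoter stretches around the element are printed for 4 members. They run 5′ to 3′ on the gene's strand, with the element in capitals. Their places are chr7:121789199-121789297 on the plus strand for Creld2, chr19:40213117-40213193 on the plus strand for Calr, chr3:38452933-38453015 on the plus strand for Hspa5 and chr7:23012307-23012509 on the minus strand for Hsp90b1, which holds 2 matches.
Creld2: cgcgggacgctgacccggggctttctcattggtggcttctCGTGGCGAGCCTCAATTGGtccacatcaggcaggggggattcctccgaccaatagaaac
Calr: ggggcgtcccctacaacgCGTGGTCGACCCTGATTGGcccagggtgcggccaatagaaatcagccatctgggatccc
Hspa5: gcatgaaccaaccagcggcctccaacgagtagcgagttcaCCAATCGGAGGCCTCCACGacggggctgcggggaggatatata
Hsp90b1: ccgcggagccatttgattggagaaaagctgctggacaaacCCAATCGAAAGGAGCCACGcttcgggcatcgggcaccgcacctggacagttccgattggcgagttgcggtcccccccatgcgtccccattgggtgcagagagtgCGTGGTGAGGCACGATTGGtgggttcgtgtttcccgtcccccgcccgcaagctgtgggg

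Creld2, a disulfide isomerase-like protein secreted under stress, read 9.0, 9.17, 8.35 and 9.24 at day 14, against 9.78, 10.14, 9.85 and 9.53 at day 3. It was 1.84-fold lower (1.28 to 2.65; adjusted p = 0.397), without overlap, and control livers were lower by 0.58 log2 units. Hyou1, a large chaperone of the HSP70 family, averaged 11.87 ± 0.35 at day 14 and 12.66 ± 0.25 at day 3 (SD, n = 4 each), 1.72-fold lower (1.2 to 2.46). Sdf2l1 and Dnajb11, partners of BiP, were 1.44-fold (1.11 to 1.86) and 1.43-fold (1.11 to 1.85) lower, the disulfide isomerase Pdia4 1.28-fold (1.03 to 1.58), and the lectin chaperone Calr 1.22-fold (1.02 to 1.46). Hspa5, which encodes BiP, averaged 16.2 ± 0.2 at day 14 and 16.5 ± 0.22 at day 3 (SD, n = 4 each), a change of -0.3 ± 0.18 log2 units (SE), and its arrays overlap between the groups. Hsp90b1, the chaperone GRP94, read 16.76, 16.82, 16.46 and 16.81 at day 14, against 16.93, 17.14, 16.95 and 16.87 at day 3, a change of -0.26 ± 0.14 (SE). The other 2 members with the element, Dnajc3 and Xbp1, had changes of -0.22 and -0.44. All 6 with the element had lower treated means at day 14, as had 15 of the 16 on the list. Of the 6, Creld2 and Calr reached an unadjusted p under 0.05. With lower values, 6 of the 16 on the list and 3.94% of all genes reached it.

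Genes of the ATF4 response, which is switched on when the kinases of the integrated stress response slow translation, had lower treated means at day 14 in 15 of 22 measured genes and higher ones in 7. With lower values 7 reached an unadjusted p under 0.05 (3.94% of all genes) and 4 of them did not overlap (2.15%), and 0 reached that p with higher values (3.77%). The median change was -0.14 log2 units in treated and -0.21 in control livers, where 5 reached that p with lower values (4.68% of all genes). Most of the 7 make serine, asparagine and folate-bound carbon units. Asns read 6.14, 5.84, 5.72 and 5.57 at day 14, against 6.67, 7.48, 6.48 and 6.76 at day 3. Psat1, the second enzyme of serine synthesis, read 6.46, 6.17, 6.40 and 6.18 at day 14 and 6.92, 7.76, 7.03 and 7.32 at day 3. It was 1.94-fold lower (1.44 to 2.61; adjusted p = 0.243), and its control change of -0.91 was about as large. Shmt2, the mitochondrial serine hydroxymethyltransferase, was 1.42-fold lower (1.14 to 1.77), and Phgdh, Slc7a11 and Mthfd2 were lower by 1.18-fold, 1.21-fold and 1.24-fold.

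Nupr1, a small stress-inducible chromatin protein, read 9.76, 9.82, 9.87 and 9.95 at day 14, against 11.80, 12.09, 10.07 and 11.41 at day 3. The mean was 2.81-fold lower (1.59 to 4.99; adjusted p = 0.331), the day 14 arrays lay close together, and replicate 3 of day 3 came close to them. Its control change was -0.38, and the difference of the time changes, -1.11 log2 units, had an unadjusted limma p of 0.0611. In the same promoter window the C/EBP-ATF response element TGATGNAA, searched on both strands, was found in 1139 of 33469 promoters (3.4%) and in 4 of the 20 list members with an entry (20.0%): Chac1, Fgf21, Nupr1 and Trib3. The list holds genes of the ATF4 response, so the share among its members is not a result of these arrays. Nupr1 is the one of the 4 with an unadjusted p under 0.05. With lower values, 7 of the 22 on the list and 3.94% of all genes reached it. The stretch of Nupr1 lies at chr1:190645909-190645996 on the minus strand, printed with the element in capitals.
Nupr1: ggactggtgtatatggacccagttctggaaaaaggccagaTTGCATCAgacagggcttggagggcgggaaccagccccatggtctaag

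Other stress genes were looked at as well. Gdf15, a stress hormone of mitochondrial dysfunction, averaged 6.15 ± 0.35 at day 14 and 6.23 ± 0.41 at day 3 (SD, n = 4 each). Of 12 p53 targets only Cdkn1a, the inhibitor of cyclin-dependent kinases, reached an unadjusted p under 0.05, which 7.71% of all genes reached in either direction. It read 5.76, 6.0, 5.93 and 5.87 at day 14, against 6.66, 7.29, 6.79 and 6.21 at day 3, or 1.8-fold lower (1.05 to 3.09; adjusted p = 0.61), with a control change of -0.11. In lists of 13 NRF2 targets and 13 cytosolic heat shock genes, 1 and 0 genes reached that p (7.71% of all genes). Their medians were -0.04 and -0.02 log2 units.

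**Figure D4:**
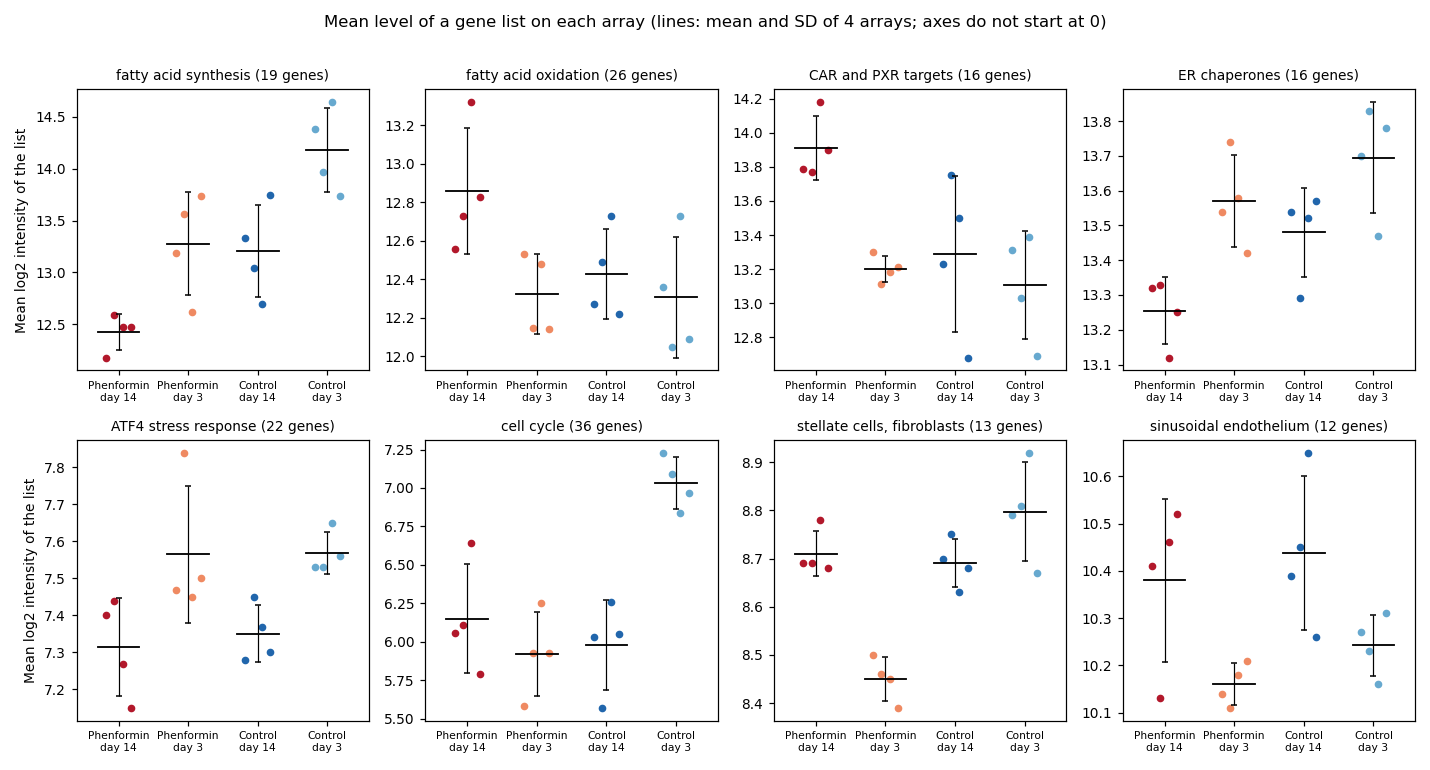
Mean log2 level of 8 gene lists in single arrays (points) for phenformin day 14, phenformin day 3, control day 14 and control day 3. The phenformin arrays of day 14 and day 3 lie apart for fatty acid synthesis (12.18 to 12.59 and 12.62 to 13.74), CAR and PXR targets (13.77 to 14.18 and 13.11 to 13.30) and ER chaperones (13.12 to 13.33 and 13.42 to 13.74), and overlap for the cell cycle list (5.79 to 6.64 and 5.58 to 6.25).

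In cell division genes the time change of the list mean had opposite signs in treated and in control livers. No cell cycle gene passed the test in phenformin livers, while 21 fell in control livers. Of 36 genes of the cell cycle and DNA replication, 34 had lower control values at day 14 at an unadjusted p under 0.05 (4.68% of all genes), 21 of which passed the test (0.353% of all genes), and the median control change was -0.94 log2 units. In treated livers 33 of the 36 had a higher mean at day 14, and the median change was 0.21. With higher values 2 reached an unadjusted p under 0.05 (Mcm7, 1.22-fold, and Tpx2, 1.36-fold), against 3.77% of all genes. The list mean lay at 5.79 to 6.64 at day 14 and at 5.58 to 6.25 at day 3 of phenformin (means of 6.15 and 5.92), against 5.57 to 6.26 and 6.84 to 7.23 in control livers (means of 5.98 and 7.03). Treated and control livers were thus closer together at day 14 than at day 3, and the 4 control arrays of day 3 stand above all others. In the comparison of the time changes, 34 of the 36 genes reached an unadjusted p under 0.05, all with the higher change in treated livers, where 2.78% of all genes reached it in that direction. None of the 36 passed the test over all genes in that comparison, which called 1 gene in all (0.00453%).

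Mki67, the proliferation marker Ki-67, read 7.55, 7.46, 9.17 and 6.65 at day 14, against 5.48, 6.85, 7.65 and 7.12 at day 3 of phenformin. In control livers it averaged 7.22 ± 0.83 at day 14 and 9.62 ± 0.33 at day 3 (SD, n = 4 each), and the difference of the time changes was 3.33 log2 units (limma adjusted p = 0.17). Rrm2, the regulated subunit of ribonucleotide reductase, read 7.60, 7.26, 8.55 and 5.77 at day 14 and 5.57, 7.21, 8.07 and 7.12 at day 3 of phenformin. Treated arrays of both times overlap, whereas control livers fell to 7.37 ± 1.3 at day 14, against 11.24 ± 0.54 at day 3 (SD, n = 4 each; adjusted p = 0.0303). Top2a, the topoisomerase of dividing cells, differed by 0.64 log2 units in treated livers and by -2.29 in control livers (limma adjusted p = 0.0421 for control).

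The 1 gene called in the comparison of the time changes was Anlnl1, whose values are low on the scale. It read 4.80, 4.86, 5.22 and 4.81 at day 14, against 4.43, 4.63, 4.14 and 4.20 at day 3 of phenformin, and averaged 4.66 ± 0.29 at day 14 and 5.67 ± 0.11 at day 3 in control livers (SD, n = 4 each). The time changes differed by 1.58 ± 0.21 log2 units (SE; limma adjusted p = 0.0284), and no gene was called without control day 3 replicate 1 or 4, control day 14 replicate 1 or 4, phenformin day 3 replicate 3 or 4, or phenformin day 14 replicate 1, 2 or 3, left out singly. Rrm1, the large subunit of ribonucleotide reductase, and the DNA helicase gene Brip1 followed with differences of 1.06 and 0.77 (adjusted p = 0.0925 each), and the condensin subunit Smc4 with 1.12 (adjusted p = 0.11). Of the 78 genes called lower in control livers, 21 had a lower treated mean at day 14. Of those, 7 reached an unadjusted p under 0.05, which 3.94% of all genes reached with lower treated values. Over all 78 the median change was 0.12 log2 units in treated and -0.84 in control livers. Of the 11 called higher in control livers, 9 had the same sign in treated livers. Over all 11 the medians were 0.29 in treated and 0.63 in control livers. Both sets were chosen by their control change, so the size of the control medians is in part set by that choice.

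**Figure D5:**
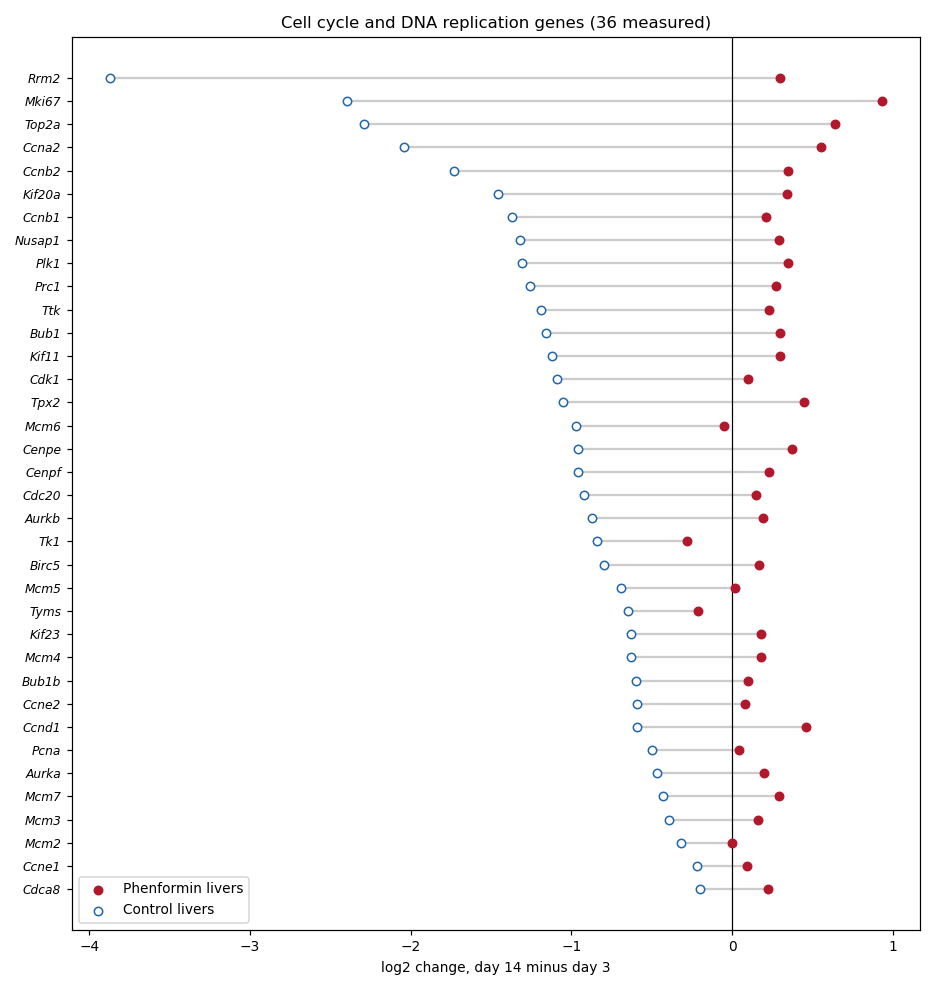
Log2 change at day 14 minus day 3 of the 36 cell cycle genes in phenformin livers (filled) and in control livers (open). In phenformin livers 33 changes lie above 0 and the median is 0.21, whereas in control livers the median is -0.94.

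Markers of the non-parenchymal cells were higher at day 14 in part. In a bulk liver sample, fewer cells of a type and less RNA per cell cannot be told apart. Of 13 markers of stellate cells and fibroblasts, 5 reached an unadjusted p under 0.05 with higher treated values at day 14 and 0 with lower (3.77% and 3.94% of all genes), and the list mean read 8.69, 8.69, 8.78 and 8.68 at day 14, against 8.5, 8.46, 8.45 and 8.39 at day 3. The treated groups lie apart, and the control arrays ran at 8.63 to 8.75 at day 14 and 8.67 to 8.92 at day 3, with the treated arrays of day 3 below all others. Dcn, the proteoglycan decorin, read 7.88, 8.10, 8.22 and 8.38 at day 14 and 7.99, 7.40, 7.06 and 7.34 at day 3 of phenformin, or 1.62-fold higher (1.18 to 2.23; adjusted p = 0.438), while control livers were lower by 0.44 log2 units. Rgs5 averaged 8.18 ± 0.27 at day 14 and 7.46 ± 0.16 at day 3 of phenformin (SD, n = 4 each), with a control change of -0.09. Lrat, the enzyme that stores retinol as esters in stellate cells, Lum (lumican) and Des (desmin) were 1.38-fold, 1.36-fold and 1.17-fold higher. Pdgfrb and Reln, which also mark these cells, differed by 0.01 and -0.06 log2 units. In the comparison of the time changes 5 of the 13 were higher and 1 lower at an unadjusted p under 0.05 (2.78% and 1.9% of all genes).

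Of 12 markers of sinusoidal endothelial cells, 6 reached an unadjusted p under 0.05 with higher treated values at day 14 and 0 with lower (3.77% and 3.94% of all genes), and the median change was 0.26 log2 units in treated and 0.23 in control livers. Mrc1, the mannose receptor, read 11.84, 11.55, 12.05 and 12.09 at day 14, against 11.41, 11.42, 11.41 and 11.52 at day 3, or 1.36-fold higher (1.14 to 1.62; adjusted p = 0.363), with a control change of 0.34. Kdr, a receptor of VEGF, was 1.52-fold higher (1.13 to 2.04), and Fcgr2b, Lyve1, Tek and Oit3 were higher by 1.19-fold to 1.33-fold. Pecam1, Cdh5 and Stab1, defining genes of endothelium, differed by 0.06, 0.03 and 0.03 log2 units.

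Genes of the extracellular matrix split. Of 26, 3 were higher and 4 lower in treated livers at an unadjusted p under 0.05 (3.77% and 3.94% of all genes), with a median of 0.03 log2 units. In control livers 17 were lower and 1 higher at that p (4.68% and 2.47% of all genes), with a median of -0.26. Beside Dcn and Lum the higher gene was Lox, the lysyl oxidase that crosslinks collagen, which read 12.12, 9.61, 5.94 and 10.72 at day 14, against 6.52, 6.65, 8.02 and 6.68 at day 3. Its 6.18-fold higher mean has an interval of 1.15 to 33.3, replicate 3 of day 14 lay below all arrays of day 3, and control livers differed by 2.74 log2 units. The lower genes were the basement membrane collagens Col4a1 and Col4a2 (1.21-fold and 1.17-fold), Fn1 (fibronectin, 1.18-fold) and Col5a1 (1.13-fold).

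Markers of macrophages and Kupffer cells (0 of 13), T cells (0 of 11), B and plasma cells (0 of 8) and natural killer cells (0 of 10) did not reach an unadjusted p under 0.05 in treated livers. The macrophage list mean spread widely within groups, at 9.81 to 10.54 at day 14 and 9.61 to 10.85 at day 3, with replicate 2 of day 3 highest. The same array was the highest of its group for MHC class II and antigen presentation (9.09, the others 7.93 to 8.49). Hepatocyte markers did not separate the times (median -0.01 log2 units). Of 11 pericentral markers, 3 were higher at that p, Cyp2e1 (1.3-fold, 1.02 to 1.66), Slc13a3 (1.42-fold, 1.02 to 1.99) and Slc1a2 (1.66-fold, 1.02 to 2.69). Of 10 periportal markers 2 were higher and 1 lower. Of all genes, 3.77% were higher and 3.94% lower at that p.

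Further groups are given by their counts, where 7.71% of all genes reached an unadjusted p under 0.05 in either direction. Of 18 lysosome and autophagy genes, 16 had a higher treated mean at day 14 and 4 reached that p, Hexa, Bnip3 (a mitophagy receptor, 1.45-fold), Ctsl (cathepsin L, 1.26-fold) and Lamp2 (1.12-fold), with a median of 0.16 log2 units in treated and 0.13 in control livers. In amino acid catabolism and the urea cycle, Asl, the argininosuccinate lyase, and Hal, which opens histidine breakdown, were 1.52-fold (1.13 to 2.05) and 1.37-fold (1.05 to 1.79) higher. They were 2 of 20 genes at that p, a share close to that of all genes. Of 10 genes of thyroid hormone action, 4 had lower values at that p: Thrsp, Me1, the deiodinase Dio1 (1.54-fold, 1.11 to 2.13) and the hormone carrier Serpina7 (2.24-fold, 1.17 to 4.28). Serpina7 read 6.26, 8.01, 6.66 and 7.39 at day 14, against 9.25, 7.22, 7.97 and 8.54 at day 3, and differed by -0.03 log2 units in control livers. Of 11 sex-biased liver genes, 8 had a higher and 3 a lower treated mean at day 14, with a median of 0.14 log2 units. At that p 1 was higher and 1 lower. The lower one was Cyp2c12, a steroid hydroxylase whose expression is female-predominant in rat liver. Cyp2c12 read 9.57, 10.17, 9.75 and 11.27 at day 14 and 11.57, 11.28, 12.82 and 12.45 at day 3. It was 3.58-fold lower (1.54 to 8.31; adjusted p = 0.444), the groups barely lay apart, and the control change was 0.12, with a difference of the time changes of -1.96 log2 units that had an unadjusted limma p of 0.0278 (adjusted 0.911).

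Several lists showed little median change between the times. The respiratory chain was one of them. Of 35 nuclear subunits of complex I, the target of biguanides, 3 were lower at an unadjusted p under 0.05 (Ndufa8 1.3-fold, Ndufb8 1.25-fold and Ndufs4 1.2-fold). Of all genes, 3.94% were lower at that p. The median was -0.07 log2 units, and of 29 subunits of complexes II to V none reached that p. Of 10 genes of AMPK subunits and biguanide transporters, 1 was lower. The clock list had a median of -0.04 log2 units, but its single changes ran from -1.25 to 0.82. Of its 18 genes, 3 were lower at that p (16.7%), a larger share than that of all genes. Among them was Bhlhe40, a repressor of the clock, at 8.73, 10.65, 11.14 and 8.88 at day 14, against 10.66, 11.47, 10.23 and 12.06 at day 3 (2.39-fold, 1.12 to 5.07). Nr1d1, the nuclear receptor that represses clock genes, read 9.58, 9.90, 10.71 and 9.66 at day 14 and 11.39, 7.23, 9.71 and 8.25 at day 3, and Per2 and Cry1 differed by -0.34 and -0.07 log2 units. The spread of Nr1d1 at day 3 (SD 1.81) is wider than at day 14 (0.52). Inmt, an N-methyltransferase, and Aldh1a1, a retinal dehydrogenase, differed by 0.88 ± 0.65 and 0.27 ± 0.39 log2 units (SE). None of 24 interferon-stimulated genes, 16 immediate early genes and 15 genes of iron and heme reached an unadjusted p under 0.05 in treated livers. Of all genes, 7.71% reached it in either direction.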

How the data were processed

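The deposited table holds 1 linear intensity per probe set and array, made with RMA per the submitters' processing notes. The sources used here give no program, version or later change of scale, so folds are ratios of deposited intensity, which can depart from ratios of RNA. Medians lay at 30.89 to 34.46 on the arrays, and detection calls were not used. Of 68842 probe sets, 23446 had 1 gene symbol in the platform annotation, and the one with the highest mean stood for a gene. For 98.5% of 23132 probe sets the chromosome matched that in RefSeq's GRCr8.

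Values were converted to log2 and fitted with 4 group means over all 16 arrays by limma 3.58.1 in R 4.3.3 (two-sided, 15.15 degrees of freedom with the prior). Unless stated otherwise, adjusted p-values are Benjamini-Hochberg values of this fit over 22093 genes, and intervals are 95% intervals from the moderated spread, assumed equal in the 4 groups. The number of arrays limits the precision. The p-values measure the spread between single rats of this experiment.

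The members and the 52 gene lists (36 of pathways, 16 of cell types; 799 of 861 entries measured) were chosen with earlier results of these data known. Named genes are the 12 per direction of smallest p without overlap (none was called), placeholder symbols left out, up to 3 members of smallest p per list, the 4 leading per direction in the other comparisons, and 20 fixed genes. Other members named are those at an unadjusted p under 0.05, or were chosen after their values were seen, as were Pecam1, Cdh5, Stab1, Pdgfrb, Reln and the members named for a promoter match. Alternatives tried were an intensity trend, array weights, a filter on low genes, quantile normalization, median centring, other rules for probe sets, a replicate block, fits of 8 arrays and leaving out each array.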

Additional observations from a re-analysis of the deposited data

Results flagged for a closer look

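In groups of 4 arrays, a highest or lowest value was singled out where its gap to the nearest other took a larger part of the group's range than Dixon's critical value allows. This met 6 of 100 groups looked at, and chance flags about 5% of groups. Amdhd1 read 12.34 in replicate 1 of phenformin day 3, with the other arrays at 13.75 to 13.82. Pck1 read 15.68 in replicate 4 of phenformin day 3, with the others at 17.63 to 17.91. Per2 read 6.74 in the same array, with the others at 6.04 to 6.08. Pnpla3 read 5.92 in replicate 2 of phenformin day 14, with the others at 5.44 to 5.46. The mean of the ATF4 list was 7.84 in replicate 2 of phenformin day 3, with the others at 7.45 to 7.50. The mean of the stellate cell list was 8.78 in replicate 3 of phenformin day 14, with the others at 8.68 to 8.69.

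Anlnl1 differed between treated and control livers in its time change, by 1.58 log2 units (limma adjusted p = 0.0284). Its value was higher at day 14 in treated livers, by 0.57, and lower in control livers, by -1.01.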

How the results depend on the processing

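The count of genes called between day 14 and day 3 of phenformin was 0 under every alternative except when single arrays were left out, where it ran from 0 to 1 higher and from 0 to 2 lower. Tmem30b passed without phenformin day 14 replicate 1 (1.45 log2 units, adjusted p = 0.019), Csad and Fndc4 without phenformin day 14 replicate 2 (-1.44 and -1.06, 0.0307 each) and Tnfrsf9 without control day 14 replicate 2 (0.00652). Genes at an unadjusted p under 0.05 then numbered 637 to 1152 higher and 681 to 1111 lower, and over all probe sets of the table, an alternative chosen after seeing the data, 1793 and 2229. The comparison of the time changes, with 1 call, had 0 with the lowest 30% of genes left out, 0 with the replicate block, 0 over all probe sets, 2 with array weights, and 0 to 10 without single arrays (10 without control day 14 replicate 3). The 89 control calls became 149 with array weights, 47 with the replicate block, 0 in a fit of only the 8 control arrays, 0 over all probe sets, and 0 to 110 without single arrays: 0 without control day 3 replicate 1 or control day 14 replicate 2, 8, 14 and 57 without control day 3 replicates 4, 2 and 3, 24 and 46 without control day 14 replicates 1 and 4, 37 and 35 without phenformin day 3 replicates 2 and 4, and 43 and 38 without phenformin day 14 replicates 1 and 2. The causes were not tested. Same-numbered arrays deviated together with correlations of -0.03 to 0.18 in phenformin and 0.0 to 0.14 in control livers. In each, 2 of 4 day 14 arrays were closest to their own number. With so few arrays these values cannot settle whether the numbers pair samples, and the main fit used no pairing.

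Of 3781 fits of 158 named genes, 3770 kept the sign, and 11 in 5 genes turned it. Rrm2l1 and Rrm2 turned without phenformin day 3 replicate 1 (-0.18 and -0.17) and without day 14 replicate 3 (-0.23 and -0.11). Cry1 turned with the mean of its probe sets (0.0) and without day 3 replicate 2 (0.05) or day 14 replicate 3 (0.02), Cyp7a1 without day 14 replicate 4 (-0.03), and Gdf15 without day 3 replicate 2 (0.02), day 3 replicate 4 (0.06) or day 14 replicate 3 (0.06). Without single arrays the changes ran up to 0.91 for Rrm2l1, 0.81 for Rrm2 and 1.13 for Cyp7a1, and down to -0.2 for Gdf15. None of 8 list medians followed over 192 settings turned its sign. They moved beyond the spread between arrays in 5 settings, to 0.36 for CAR and PXR targets and to 0.17 to 0.29 for stellate cell markers.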

Other observations

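Several of the greatest differences between day 14 and day 3 of phenformin came from genes with a wide spread. They were picked after their values were seen. Upp2, a uridine phosphorylase of liver, read 10.51, 11.15, 13.45 and 11.96 at day 14, against 11.25, 8.78, 9.38 and 8.64 at day 3, or 4.77-fold higher (1.57 to 14.5). Slc25a47, a mitochondrial carrier of liver, read 13.37, 13.86, 16.50 and 14.60 at day 14 and 14.48, 12.79, 12.46 and 9.73 at day 3, or 4.65-fold higher (1.22 to 17.8). Rab30, a small GTPase of the Golgi, read 8.62, 9.26, 11.61 and 9.65 at day 14, against 8.49, 7.19, 7.96 and 7.22 at day 3, or 4.2-fold higher (1.66 to 10.6). In Upp2, Slc25a47, Rab30 and Cpt1a, replicate 3 was the highest array of day 14 and replicate 1 the highest of day 3 of phenformin. Osmr, the receptor of oncostatin M, read 8.38, 6.90, 8.40 and 6.61 at day 14 and 8.35, 11.23, 9.68 and 8.21 at day 3, or 3.47-fold lower (1.18 to 10.2), with a control change of -0.07. Replicate 2 of day 3, its highest array, was also the highest of its group for the ATF4, macrophage and MHC class II lists.

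Pck1 was lowest in replicate 4 of every group, at 18.14 at day 14 and 15.68 at day 3 of phenformin, and at 16.69 at day 14 and 16.37 at day 3 of control livers. Replicates of different groups share only a number in the labels.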
